A study of Homo sapiens with 6 samples.

Results

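The cilium axoneme and transport genes are the protein-coding genes whose symbols begin with DNAH, DNAI, DNAL, DNAAF, CFAP, RSPH, TEKT, IFT or BBS followed by a digit. The rule uses symbol and biotype alone but was set with earlier results of these data known. It was met by 90 of the 58735 genes in the count table. Of these, 68 belong to families of the axoneme and its dynein assembly (13 DNAH, 2 DNAI, 2 DNAL, 5 DNAAF, 33 CFAP, 8 RSPH and 5 TEKT genes) and 22 to transport families (14 IFT and 8 BBS genes). RNA was sequenced from T3M4, an established human pancreatic ductal adenocarcinoma cell line, grown without treatment. The 3 libraries labelled KO carry the genotype MUC16 knockout, and the 3 labelled WT carry the genotype MUC16 expressing, where MUC16 is a large membrane-tethered mucin of epithelial cells. The labels name no guide and no clone, and none says whether the replicates were grown apart, so p-values measure only the spread between these libraries, which may be technical. The comparison asks whether the cilium genes followed FOXJ1 between the libraries labelled KO and those labelled WT.

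The axoneme is the microtubule core of a cilium. In motile cilia, outer and inner dynein arms slide its microtubule doublets against each other, radial spokes regulate the sliding, tektins lie within the doublet wall, and dynein arms are put together in the cytoplasm by assembly factors before they are carried out. Intraflagellar transport (IFT) trains, made of the complexes IFT-A and IFT-B, carry cargo along the axoneme of both motile and primary cilia, and the BBSome, a coat of BBS proteins, moves membrane proteins in and out. FOXJ1 is a forkhead transcription factor that switches on the genes of motile cilia, while IFT and BBS genes are used by primary cilia as well and are expressed in many cell types. RFX factors bind X-box sites in the promoters of cilium genes.

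Libraries held between 19088927 and 28612621 gene counts. MUC16 itself went against the label: it had 292, 504 and 323 counts in the libraries labelled KO, against 98, 144 and 90 counts in the libraries labelled WT, a log2 fold change of 1.79 ± 0.17 (SE). Directions below are therefore those of the labels as deposited. Levels within a gene are CPM, counts scaled to library size with TMM factors, and levels between genes are these per kilobase of gene length (RPKM). A gene was said to have risen or fallen when edgeR's quasi-likelihood test, adjusted by Benjamini-Hochberg over 16655 genes with enough counts, passed 0.05. At that threshold 52.6% of all tested genes changed, 26.7% of them higher and 25.9% lower in the libraries labelled KO, so a single member that passed stands against a very frequent call. Of the 6 markers of ductal epithelium, the cell type of the line, 6 were measured, at summed levels of 5491 to 5756 CPM in the libraries labelled KO and 3488 to 3567 CPM in those labelled WT, and all 6 rose. None of 6 acinar and none of 5 leukocyte markers had enough counts to test.

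FOXJ1 (ENSG00000129654, chromosome 17, 76136333 to 76141299, minus strand, GRCh38) fell. It had 7, 11 and 10 counts in the libraries labelled KO, against 288, 325 and 286 counts in the libraries labelled WT. In CPM these were 0.358, 0.428 and 0.341 against 10.9, 12.1 and 12.8, so the groups did not overlap and every library labelled WT lay far above every library labelled KO. The log2 fold change was -4.97 ± 0.19 (SE, edgeR, adjusted p = 9.67e-16), a 31.3-fold lower level in the libraries labelled KO. In bulk RNA, fewer cells of a type and less RNA per cell cannot be told apart.

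Few of the cilium genes fell with FOXJ1. Of the 90, 51 had enough counts to be tested, and among these 19 rose (37.3%, against 26.7% of all tested genes and 28.7% of the protein-coding ones), 4 fell (7.84%, against 25.9% and 29.6%) and 28 did not pass. The 51 are the members above the low-count filter and not all members. The shares over all genes are not matched for level, with which calls moved. Their log2 fold changes ran from -0.72 to 1.40 with a median of 0.22, against a median of 0.0035 over all tested genes. The median was 0.12 without KO replicate 1 or with a stricter filter (50 counts in 3 libraries) and 0.089 with cyclic loess. Values were positive for 33 members and negative for 18. The 4 that fell were DNAAF5, CFAP44, IFT172 and CFAP20, by 1.19 to 1.31 times. The count of fallen members was 7 with cyclic loess, 2 at an adjusted p threshold of 0.01 and 0 among the 24 tested members whose exons overlap no other gene, a restriction chosen after seeing the data. Of all tested genes, 25.1% fell with cyclic loess and 20.8% at 0.01. No member fell by 2-fold or more, while 4 rose by at least that much, namely DNAH11, CFAP43, CFAP46 and DNAH3; over all tested genes 8.87% changed by 2-fold or more, 7.52% higher and 1.36% lower. Groups did not overlap for 28 members (21 higher and 7 lower, 54.9% of those tested), against 59% of all tested genes.

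**Figure D1:**
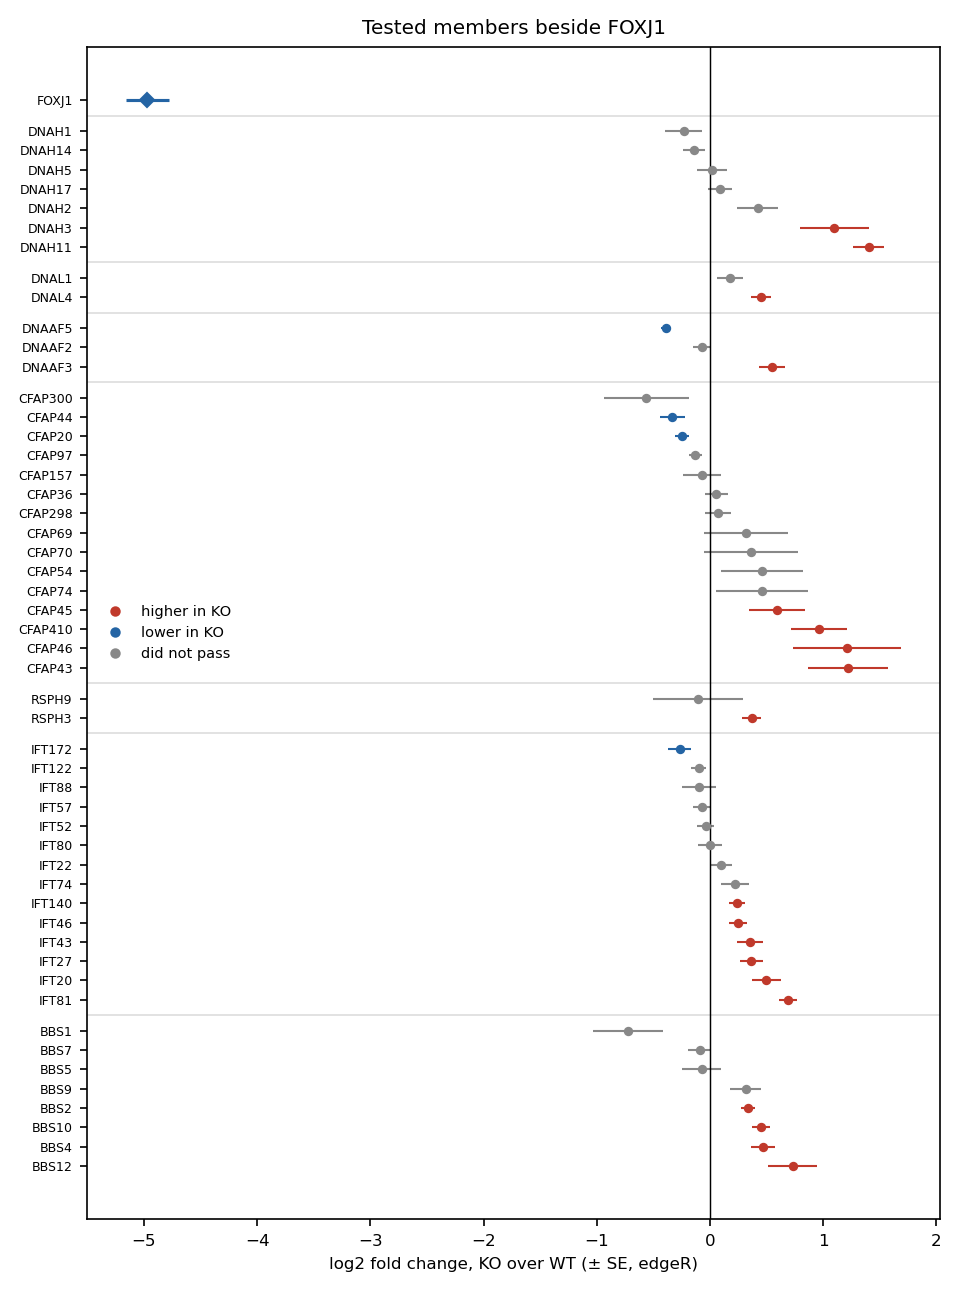
The log2 fold change of the libraries labelled KO over those labelled WT (horizontal axis, with SE bars from edgeR) is drawn for FOXJ1 and for each of the 51 tested members, grouped by family. FOXJ1 stands at -4.97, and all 51 members lie between -0.72 and 1.40.

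Members also differed by level in how they compared with other genes. Among 8 members under 1 CPM the median log2 fold change was 0.41, against 0.22 for all genes of that level, and among 9 members at 1 to 4 CPM it was 0.42, against 0.26. For 21 members at 4 to 16 CPM the medians were close, 0.10 for the members and 0.09 for all genes. For 12 members at 16 to 64 CPM the median was 0.10, against -0.04. The 1 member above 64 CPM was DNAAF5, at -0.39, against -0.11 for all genes there. The median thus moved with level in all tested genes, and so did the calls. Over all tested genes, those that fell were 126 of 2543 under 1 CPM, 209 of 2657 at 1 to 4 CPM and 509 of 2881 at 4 to 16 CPM. They were 1542 of 4705 at 16 to 64 CPM and 1931 of 3869 above that. In the same order of level, 517, 849, 995, 1229 and 852 genes rose. Of the members, 0, 0, 2, 1 and 1 fell and 2, 4, 7, 6 and 0 rose. The members' part beyond level was not tested.

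**Figure D2:**
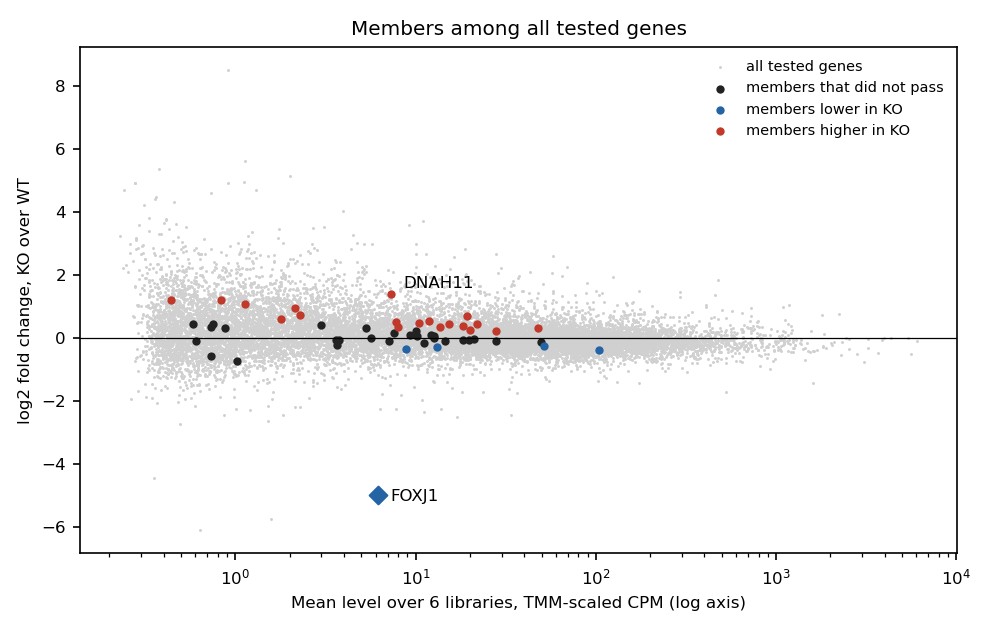
Each point is 1 tested gene, with its mean level over 6 libraries in TMM-scaled CPM on a log axis and its log2 fold change of libraries labelled KO over WT on the vertical axis. The members, in dark or coloured points, lie within the cloud of all tested genes in grey, and FOXJ1 lies far beneath them at -4.97.

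By level, the members themselves fell into a measured part and a part with few or no counts. All 22 transport genes were tested, and 29 of the 68 axoneme genes. The remaining 39 members, all of the axoneme, held 308 counts summed over the 3 libraries labelled KO and 217 over the 3 labelled WT, and 6 of them (CFAP126, CFAP221, CFAP97D2, DNAH8, TEKT1 and TEKT4) had 0 counts in every library. A count of 0 allows up to 3 counts, or 0.102 to 0.154 CPM depending on the library, counting error only. All 774 exon bases of CFAP126 overlap SDHC, on the other strand, and 58.5% of those of TEKT4 overlap another gene. How such reads were assigned is not stated, so the 0 of CFAP126 does not bound its level. Tested members ran from 0.0413 to 21.7 RPKM with a median of 1.56, while the 39 untested ones reached at most 0.138 RPKM. In the libraries labelled WT, 10 members stood above the 4.52 RPKM of FOXJ1. In the libraries labelled KO, 46 stood above its 0.142 RPKM. In the libraries labelled WT, where FOXJ1 RNA was present, 44 of the 90 members were under 0.1 RPKM.

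Intermediate chains, tektins and several heavy chain and spoke genes were among the untested members. DNAH9, an outer arm heavy chain of motile cilia, had 0, 1 and 0 counts in the libraries labelled KO, against 4, 2 and 0 counts in the libraries labelled WT. Summed over libraries, the other untested heavy chains with counts ran the other way. In the same order of groups, these were DNAH10 (8, 19 and 4 against 2, 6 and 5) and DNAH7 (7, 11 and 8 against 4, 2 and 4). DNAH12 had 3, 4 and 0 against 0, 1 and 1, and DNAH6 had 1, 4 and 0 against 1, 0 and 0. DNAI1, an outer arm intermediate chain, had 0, 4 and 2 counts in the libraries labelled KO, against 2, 2 and 0 in the libraries labelled WT. Its partner DNAI2 had 2, 1 and 0 against 2, 1 and 1. Both intermediate chains were thus at a handful of reads at most in either group. RSPH4A, a radial spoke head protein, had 0, 1 and 0 counts in the libraries labelled KO, against 1, 2 and 4 in the libraries labelled WT. RSPH1, another spoke head protein, ran the other way, with 3, 10 and 6 counts in the libraries labelled KO, against 2, 0 and 0 in the libraries labelled WT. All 5 tektins were untested, with TEKT1 and TEKT4 at 0 throughout. The most reads of an untested member in any library were 20, for DNAAF1, an assembly factor, in WT replicate 2; its counts were 4, 3 and 14 in the libraries labelled KO, against 8, 20 and 4 in the libraries labelled WT, and the groups overlapped. Summed over libraries, 20 of the 39 had more counts in the libraries labelled KO, 11 had fewer and 8 had equal counts. In a fit with no filter on low counts, 33 of the 39 could be fitted, and RSPH1 and CFAP97D1 passed, both higher in the libraries labelled KO. Over all 32023 genes of that fit 13.5% were called higher and 13.7% lower. Neither gene passed in the authors' deposited table. The counts of CFAP97D1 were 0, 2 and 10 in the libraries labelled KO, against 0 in each library labelled WT. RSPH10B and RSPH10B2 are near-identical copies whose reads the counting could split, so their counts, at most 4 in a library, are uncertain.

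**Figure D3:**
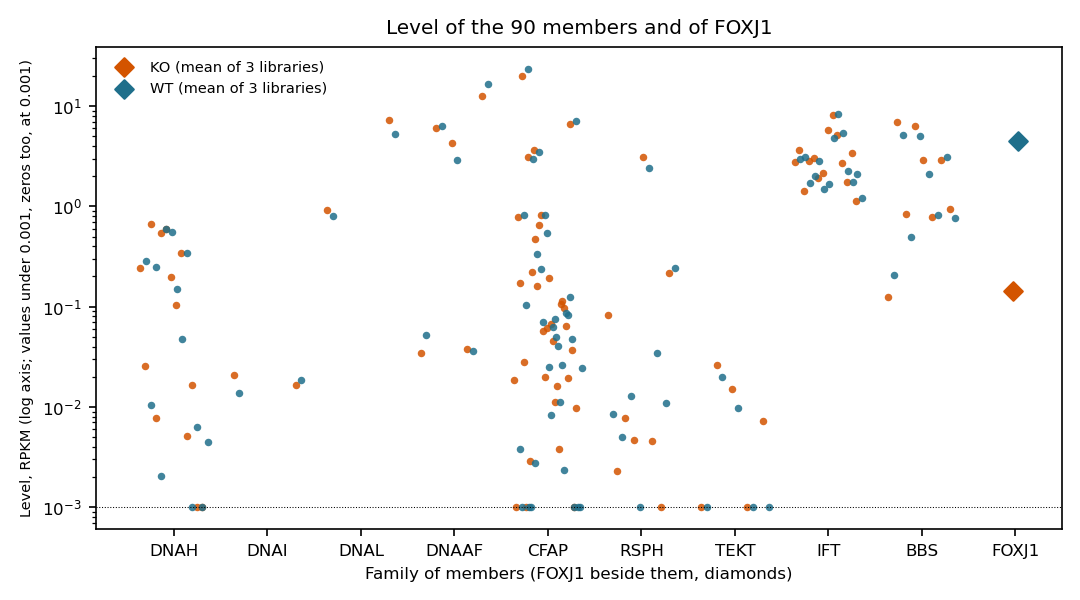
Mean RPKM over the 3 libraries labelled KO and the 3 labelled WT (log axis) is drawn for all 90 members by family, with FOXJ1 at the right as diamonds. Most IFT and BBS genes sit at the higher end, DNAI and TEKT genes near the bottom, and FOXJ1 at 0.142 RPKM in the libraries labelled KO and 4.52 RPKM in those labelled WT.

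Promoters were compared because both RFX and forkhead sites have been linked to cilium genes. RefSeq windows (GRCh38.p14, from 250 bases before to 50 after each gene start) matched 77 of the 90 members with 88 windows. The RFX core GTTGCCA, or TGGCAAC on the other strand, occurred in 25 of the 88 windows (28.4%), in 24 genes, against 4.08% of all 35116 windows. It occurred in 31.6% of the windows of untested members and in 26.0% of those of tested ones, and stood in 3 of 19 windows of members that rose (CFAP45, IFT46 and IFT81) and in 0 of 5 of those that fell. The longer X-box, GTTNCC followed by any 2 bases and GGNAAC, which reads the same on both strands and contained the shorter site in both members where it was found, occurred in 2 of 88 windows (2.27%, against 0.490% of all windows). The forkhead letters GTAAACA, or TGTTTAC, occurred in 5 of 88 windows (5.68%, against 3.42%). A match describes letters in a window and not a bound site. Shown are the bases before the start of the 2 members with an X-box, of IFT46, a transport gene that rose, and of TEKT1, which holds both an RFX core and forkhead letters and had 0 counts in all 6 libraries. Capitals mark the matched motifs.
CFAP45 promoter, chr1:159900166-159900415, minus strand: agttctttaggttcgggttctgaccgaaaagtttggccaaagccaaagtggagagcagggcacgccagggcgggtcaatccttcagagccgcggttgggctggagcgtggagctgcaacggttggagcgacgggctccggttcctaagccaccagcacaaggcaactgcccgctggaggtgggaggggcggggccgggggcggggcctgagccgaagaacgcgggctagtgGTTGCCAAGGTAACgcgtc
DNAH1 promoter, chr3:52316069-52316318, plus strand: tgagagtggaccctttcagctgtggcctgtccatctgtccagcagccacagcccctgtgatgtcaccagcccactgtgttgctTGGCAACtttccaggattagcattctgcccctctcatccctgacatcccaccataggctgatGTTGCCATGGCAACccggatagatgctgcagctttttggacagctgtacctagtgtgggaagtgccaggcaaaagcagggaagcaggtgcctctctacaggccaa
IFT46 promoter, chr11:118565932-118566181, minus strand: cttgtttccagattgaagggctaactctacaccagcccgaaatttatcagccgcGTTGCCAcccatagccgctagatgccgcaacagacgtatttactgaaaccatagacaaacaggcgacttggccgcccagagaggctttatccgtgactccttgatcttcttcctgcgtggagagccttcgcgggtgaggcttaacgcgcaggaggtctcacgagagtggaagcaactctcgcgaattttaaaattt
TEKT1 promoter, chr17:6831730-6831979, minus strand: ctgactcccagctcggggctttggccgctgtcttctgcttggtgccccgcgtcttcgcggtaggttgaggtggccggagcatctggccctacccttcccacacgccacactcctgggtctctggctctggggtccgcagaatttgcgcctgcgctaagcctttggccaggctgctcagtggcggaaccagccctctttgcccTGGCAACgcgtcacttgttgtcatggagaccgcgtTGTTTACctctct
Counted back from the start, the X-box begins 19 bases before it in CFAP45 and 105 bases before it in DNAH1, which has a further core at 167. The core lies 196 bases before the start of IFT46, and that of TEKT1 48 bases, with its forkhead letters 13 bases before the start.

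Among the dynein heavy chains, the motors that bend the axoneme, 7 of 13 were tested, 2 rose and none fell. The share that rose, 28.6%, was near the 26.7% of all tested genes, of which 25.9% fell. DNAH11 (chromosome 7, 21543215 to 21901839, plus strand), an outer arm chain of motile cilia, had 10.7, 11.6 and 9.49 CPM in the libraries labelled KO, against 3.45, 4.83 and 3.63 CPM in the libraries labelled WT. All 3 libraries labelled KO were above all 3 labelled WT, and the log2 fold change was 1.40 ± 0.14 (SE, edgeR, adjusted p = 9.27e-09). Its exons overlap 833 bases of CDCA7L, a gene on the other strand that fell, at -0.16, so reads of the pair cannot be told apart there. DNAH3, an inner arm chain, had 1.84, 1.63 and 1.20 CPM in the libraries labelled KO, against 0.683, 0.706 and 0.762 CPM in the libraries labelled WT, with a log2 fold change of 1.10 ± 0.31 (adjusted p = 0.00409). DNAH17, an outer arm chain of the sperm tail, averaged 9.61 ± 0.926 CPM in the libraries labelled KO and 9.01 ± 0.019 CPM in the libraries labelled WT (SD, n = 3 each), a difference within the spread of the KO group. DNAH5, an outer arm chain of airway cilia, averaged 5.68 ± 0.534 CPM in the libraries labelled KO and 5.59 ± 0.476 CPM in the libraries labelled WT. DNAH1, an inner arm chain with an X-box, averaged 3.34 ± 0.293 CPM in the libraries labelled KO and 3.95 ± 0.409 CPM in the libraries labelled WT, with a log2 fold change of -0.23 ± 0.16 that did not pass, except with cyclic loess (-0.41, adjusted p = 0.0431). DNAH2 leaned higher and did not pass (0.42 ± 0.18, edgeR, adjusted p = 0.0553). It passed in 4 refits: upper-quartile factors, the stricter filter, protein-coding genes alone, and without KO replicate 3. Of the light chains, DNAL4 rose, at 17.6 ± 0.634 CPM in the libraries labelled KO against 12.9 ± 1.27 CPM in the libraries labelled WT (log2 0.45 ± 0.09, adjusted p = 0.000194), beside SUN2, an overlapping gene that rose by 0.40.

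The 5 assembly factors, which build dynein arms in the cytoplasm, gave 3 tested genes, of which 1 fell, 1 rose and 1 did not pass. Beside them, 25.9% of all tested genes fell and 26.7% rose. DNAAF5 (chromosome 7, 726701 to 786475, plus strand), the most abundant of them, had 87.9, 91.0 and 90.4 CPM in the libraries labelled KO, against 114, 116 and 122 CPM in the libraries labelled WT. The groups did not overlap, and the log2 fold change was -0.39 ± 0.05 (edgeR, adjusted p = 1.68e-07). PRKAR1B, which overlaps 383 of its bases, fell by 0.19. DNAAF3 rose, at 14.1 ± 1.71 CPM in the libraries labelled KO against 9.56 ± 1.32 CPM in the libraries labelled WT (0.55 ± 0.11), although 31.4% of its exon bases lie in other genes. DNAAF2 stood at 17.9 ± 1.34 CPM in the libraries labelled KO against 18.8 ± 0.559 CPM in those labelled WT (log2 -0.07 ± 0.08) and did not pass.

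**Figure D4:**
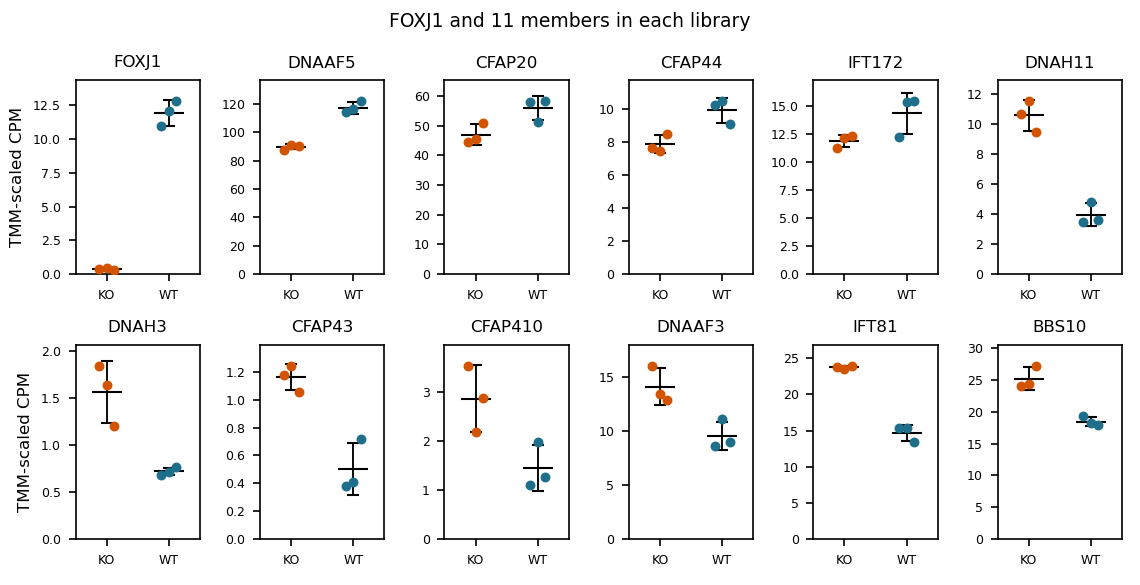
TMM-scaled CPM is drawn for each library, with the mean and SD (n = 3) of the libraries labelled KO at the left and WT at the right of each panel, for FOXJ1 and 11 members. The CPM axis starts at 0 and differs between panels, and only FOXJ1 has its KO values near the axis.

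The CFAP genes, named for association with cilia and flagella and holding proteins of many parts of the axoneme, had 15 of 33 tested, with 4 risen and 2 fallen. The share that rose was 26.7%, the same as over all tested genes, and 13.3% fell, against 25.9%. CFAP43 and CFAP44 are partners in one complex that tethers an inner arm dynein, and they moved apart. CFAP43 had 1.18, 1.24 and 1.06 CPM in the libraries labelled KO, against 0.379, 0.409 and 0.717 CPM in the libraries labelled WT (1.22 ± 0.36, adjusted p = 0.00609). CFAP44 had 7.62, 7.47 and 8.50 CPM in the libraries labelled KO, against 10.2, 10.5 and 9.05 CPM in the libraries labelled WT (-0.33 ± 0.11, adjusted p = 0.0138). The groups did not overlap for either partner, and 29.2% of the exon bases of CFAP44 lie in other genes. Without KO replicate 2 the value of CFAP44 was -0.29 with an adjusted p of 0.0531, and without WT replicate 2 it was -0.29 with an adjusted p of 0.0549. CFAP20, a protein of the doublet's inner junction and at 19.8 RPKM in the libraries labelled KO and 23.5 RPKM in the libraries labelled WT the most abundant CFAP gene, had 44.4, 45.5 and 51.0 CPM in the libraries labelled KO, against 58.0, 51.2 and 58.4 CPM in the libraries labelled WT. Its highest KO value was just under its lowest WT value, and the log2 fold change was -0.25 ± 0.06 (adjusted p = 0.0024). CFAP410 rose by 0.96 ± 0.25, with 60.4% of its exon bases inside other genes. CFAP97 leaned lower and did not pass (-0.13 ± 0.06, edgeR, adjusted p = 0.0561). It passed in 2 refits: DESeq2 size factors, and without WT replicate 2.

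CFAP45 and CFAP46 rose, but these calls rested on few reads. CFAP45, a protein inside the doublet microtubule whose promoter holds an X-box, had 45, 45 and 70 counts in the libraries labelled KO, against 29, 44 and 34 in the libraries labelled WT (0.60 ± 0.25, edgeR, adjusted p = 0.0466). It did not pass without KO replicate 1 (0.55, adjusted p = 0.118), KO replicate 3 (0.50, 0.166), WT replicate 1 (0.44, 0.185) or WT replicate 3 (0.64, 0.0624), nor with no filter (adjusted p = 0.0677), DESeq2 (0.0888) or cyclic loess (0.213). CFAP46, of the central apparatus, had 10, 13 and 24 counts in the libraries labelled KO, against 9, 3 and 8 in the libraries labelled WT (1.21 ± 0.48, adjusted p = 0.0378). Without KO replicate 1 the adjusted p was 0.0525 at 1.31, without KO replicate 3 it was 0.193 at 0.92, and without WT replicate 2 it was 0.187 at 0.82. It did not pass with no filter (0.0622), DESeq2 (0.0963) or cyclic loess (0.172) either. Of the radial spoke genes, RSPH3, a stalk protein, rose to 20.6 ± 0.693 CPM in the libraries labelled KO against 15.9 ± 1.37 CPM in the libraries labelled WT (0.37 ± 0.08), and RSPH9, a head protein, had 6, 16 and 23 counts in the libraries labelled KO, against 13, 19 and 16 in the libraries labelled WT, and did not pass.

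Of the 14 IFT genes, 6 rose and 1 fell (42.9% and 7.14%, against 26.7% and 25.9% of all tested genes). IFT81 (chromosome 12, 110124335 to 110218797, plus strand), a subunit of IFT-B that binds tubulin, had 23.7, 23.5 and 24 CPM in the libraries labelled KO, against 15.3, 15.3 and 13.4 CPM in the libraries labelled WT. The libraries labelled KO were within a narrow band above all those labelled WT, and the log2 fold change was 0.69 ± 0.08 (edgeR, adjusted p = 1.27e-07). IFT20, which also acts at the Golgi, rose by 0.50 ± 0.13, with the overlapping gene TMEM97 falling by 0.25. IFT27, a small GTPase of IFT-B, rose by 0.37 ± 0.10, IFT140, an IFT-A subunit, by 0.24 ± 0.07 and IFT43, another IFT-A subunit, by 0.35 ± 0.12. IFT46, of IFT-B, rose by 0.25 ± 0.08. Without KO replicate 2 IFT43 stood at 0.29 with an adjusted p of 0.0715, without WT replicate 1 at 0.30 (0.0575), and with cyclic loess at 0.23 (0.103). IFT46 stood at 0.21 without KO replicate 1 (0.061) or without WT replicate 1 (0.0541).

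IFT172, an IFT-B subunit, was the transport gene that fell, with 11.3, 12.1 and 12.3 CPM in the libraries labelled KO, against 12.3, 15.3 and 15.5 CPM in the libraries labelled WT. The groups touched, since WT replicate 1 lay among the libraries labelled KO, and the log2 fold change was -0.27 ± 0.10 (edgeR, adjusted p = 0.0312). It did not pass without KO replicate 1 (-0.23, adjusted p = 0.0998), WT replicate 2 (-0.22, 0.123) or WT replicate 3 (-0.21, 0.126), nor with upper-quartile factors (-0.21, 0.0876). IFT52, the most abundant IFT gene per length, averaged 20.9 ± 0.31 CPM in the libraries labelled KO and 21.4 ± 1.23 CPM in the libraries labelled WT, and its groups overlapped. IFT88, a core IFT-B subunit whose loss abolishes cilia in mouse, averaged 6.84 ± 1.78 CPM in the libraries labelled KO and 7.41 ± 0.48 CPM in the libraries labelled WT.

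Of the 8 BBS genes, 4 rose and none fell, while 26.7% of all tested genes rose and 25.9% fell. BBS10 and BBS12, chaperonin-like proteins that help assemble the BBSome, moved together. BBS10 had 24, 24.4 and 27.3 CPM in the libraries labelled KO, against 19.3, 18.2 and 17.9 CPM in the libraries labelled WT (0.45 ± 0.08, edgeR, adjusted p = 2.87e-05). BBS12 had 2.81, 3.31 and 2.49 CPM in the libraries labelled KO, against 1.63, 2.12 and 1.39 CPM in the libraries labelled WT (0.73 ± 0.22, adjusted p = 0.00723). The groups did not overlap for either. The coat subunits BBS2 and BBS4 rose by 0.34 ± 0.06 and 0.47 ± 0.11. BBS1, a coat subunit at 0.77 ± 0.0735 CPM in the libraries labelled KO and 1.28 ± 0.25 CPM in the libraries labelled WT, did not pass (-0.72 ± 0.31, edgeR, adjusted p = 0.0552). It passed with cyclic loess (-0.93, adjusted p = 0.00851), with protein-coding genes alone (-0.72, 0.0438) and without WT replicate 1 (-0.87, 0.0413). Of its exon bases 64.5% lie in other genes, among them 759 bases in ZDHHC24, a gene on the other strand that rose by 0.62. BBS9 leaned higher and did not pass (0.32 ± 0.14, edgeR, adjusted p = 0.0581). It passed in 4 refits: upper-quartile factors, the stricter filter, without KO replicate 2, and without WT replicate 3.

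By summed level, the transport members took 347 to 350 CPM in the libraries labelled KO and 299 to 311 CPM in the libraries labelled WT. The axoneme members ran the other way, 355 to 361 CPM against 367 to 381 CPM, a sum in which the abundant DNAAF5 and CFAP20 weigh most. By count of calls, 10 of the 22 tested transport genes rose (45.5%) and 1 fell (4.55%), with a median log2 fold change of 0.23. Of the 29 tested axoneme genes, 9 rose (31.0%) and 3 fell (10.3%), with a median of 0.18. Over all tested genes 26.7% rose and 25.9% fell, with a median of 0.0035, not matched for level. The share of axoneme genes that rose was thus near that of all tested genes. Whether the classes differ was not tested.

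**Figure D5:**
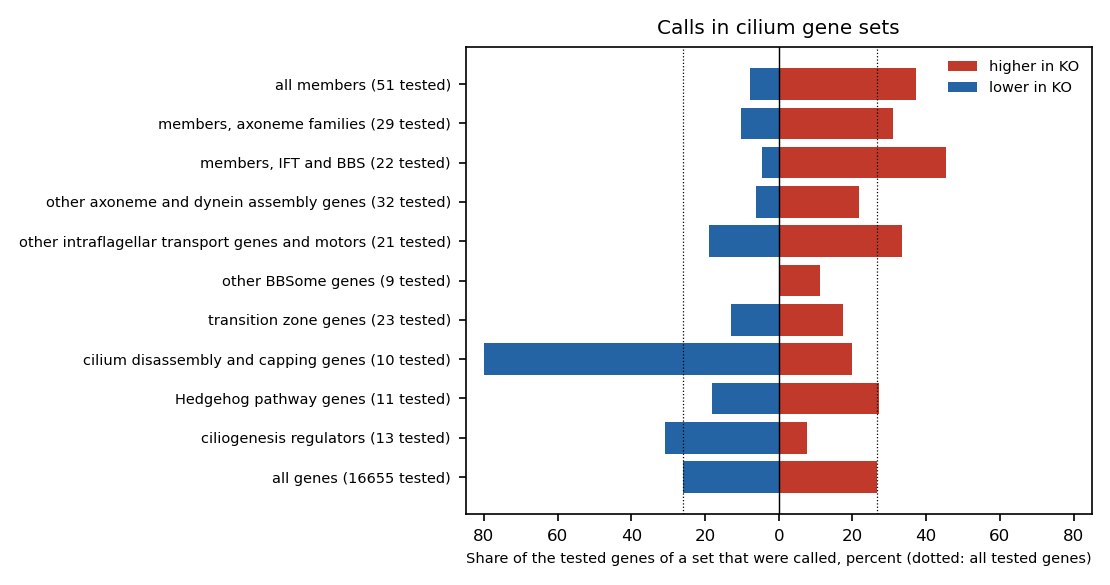
The share of the tested genes of each set that rose in the libraries labelled KO (bars to the right) or fell (bars to the left), in percent, is drawn with dotted lines at the shares of all tested genes, 26.7% and 25.9%. The members' bar to the left stands at 7.84%, and cilium disassembly genes are the set with the longest bar to the left. The dotted shares are not matched for level.

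Other genes of the cilium were counted by role. Over all tested genes 26.7% rose and 25.9% fell, shares not matched for level. Of the regulators of ciliogenesis, 13 of 16 were tested, 1 rose and 4 fell. Besides FOXJ1, the factor RFX2 fell (-0.41 ± 0.13), and MYB, which acts upstream of motile ciliogenesis, rose (0.60 ± 0.14). Of 49 other axoneme and assembly genes, 32 were tested, 7 rose and 2 fell. LRRC6, an assembly factor, had 24, 19 and 25 counts in the libraries labelled KO, against 3, 6 and 1 in the libraries labelled WT (2.77 ± 0.51). AK7, an adenylate kinase of cilia, rose by 1.37 ± 0.29 and WDR78, of the inner arm, by 1.35 ± 0.35. Of 21 other IFT and motor genes, 7 rose and 4 fell, with TTC30A at 0.89 ± 0.11 and TTC30B at 0.75 ± 0.11, near-identical IFT-B genes whose reads may be shared, and DYNC2LI1, of the retrograde motor, at 0.57 ± 0.12. Of 9 other genes listed with the BBSome, not all of them subunits of the coat, 1 rose, SDCCAG8 at 0.23 ± 0.07, and none fell.

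Of 23 genes of the transition zone, the gate at the base of the cilium, 4 rose and 3 fell, with TMEM107 at 0.78 ± 0.09, CEP290 at 0.52 ± 0.09 and TMEM138 at -0.53 ± 0.06. All 10 genes of cilium disassembly and capping were called, 2 higher and 8 lower, against 26.7% and 25.9% of all tested genes. Above 64 CPM, where PLK1 and AURKA lie, 1931 of 3869 tested genes fell and 852 rose. PLK1, a mitotic kinase, had 158 ± 1.17 CPM in the libraries labelled KO against 263 ± 4.98 CPM in the libraries labelled WT (-0.74 ± 0.04), and AURKA, which drives ciliary resorption, 86.5 ± 2.76 CPM against 142 ± 4.2 CPM (-0.71 ± 0.05). NEDD9, a scaffold that activates AURKA, rose by 0.89 ± 0.07. Several of these genes also serve mitosis. Of 18 Hedgehog genes, whose signal passes through the primary cilium, 11 were tested, 3 rose and 2 fell. The ligand SHH had 3.33, 4.28 and 3.76 CPM in the libraries labelled KO, against 9.64, 11.6 and 10.8 CPM in the libraries labelled WT (-1.48 ± 0.13). The transcription factor GLI2 fell by 0.64 and the co-receptor BOC rose by 1.36, while the signal transducer SMO had 0 counts in every library.

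Of 13 markers of motile ciliated cells, 6 were tested, none rose and CCDC78 fell (-0.53 ± 0.18), against 25.9% lower over all tested genes. Values of the 6 ran from -0.53 to 0.54 with a median of -0.07, 3 negative and 3 positive. None of the 13 passed in the authors' deposited table. The summed level of the 13 was 9.65 to 10.4 CPM in the libraries labelled KO and 10.1 to 10.6 CPM in the libraries labelled WT. Of 6 fibroblast markers, 2 were tested and 1 rose, at summed levels of 42.4 to 46.7 CPM in the libraries labelled KO and 30.7 to 34.1 CPM in those labelled WT. Of 4 endothelial markers, 3 were tested and all 3 rose, at 19.7 to 22.0 CPM in the libraries labelled KO and 13.4 to 16.6 CPM in those labelled WT. The 3 had a median level of 0.232 RPKM. For both marker lists, 26.7% of all tested genes rose, a share not matched for level. The part of these markers in the members' values was not tested.

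In the authors' deposited table, 17 of the 82 members it lists passed its adjusted p threshold of 0.05, 15 higher and 2 lower. Of its 29015 genes 25.8% did, counted in both directions together. The share in each direction was not computed, so the members' split by direction has none beside it. All 17 were also called here, in the same direction. The other members called here, CFAP44, IFT172, IFT43, IFT46, CFAP45 and CFAP46, did not pass there. Both tables rest on the same 6 libraries, so the shared calls are not independent.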

How the data were processed

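RNA was extracted from near-confluent cells and made into libraries with a kit that does not mark strand, per the labels' protocols. The submitters' processing notes name fastp, HISAT2, STAR and DESeq with GRCh38 and hg38; their versions, and how reads were assigned to genes or strands, are stated by none of the sources used here, so reads of overlapping genes cannot be told apart. The authors deposited raw read counts, 1 column per library, whose gene positions equal those of GENCODE release 29 (GRCh38). Log2 fold changes and adjusted p-values in the authors' second table come from their comparison, per its file headers; its other 21 value columns were not used.

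Counts were tested with edgeR 4.0.16 (R 4.3.3; glmQLFit and glmQLFTest, two-sided, TMM factors, filterByExpr with minimum count 10 and minimum total 15), KO over WT, with Benjamini-Hochberg adjustment over the 16655 genes tested and a threshold of 0.05. Standard errors came from the F statistic. RPKM used the deposited gene length. The edgeR step was tested on simulated data. No 2 libraries of a group agreed within sampling noise. Sequences and promoter windows are from RefSeq (GRCh38.p14).

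Named genes were the members past the threshold with the largest changes, those with the smallest p and the highest RPKM in each family, and up to 3 members of each fixed list; further members were named with their values known. The members and lists were chosen with earlier results of these data known. Alternatives were other normalisations, filters and tests (limma 3.58.1, DESeq2 1.42.0), leaving out each library, a replicate block, a threshold of 0.01, protein-coding genes alone, and, chosen after seeing the data, members without exon overlap.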

Additional observations from a re-analysis of the deposited data

How the results depend on the processing

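FOXJ1 fell under every alternative, between -5.08 and -4.89. The count of members that fell, 4, was 7 with cyclic loess and 2 at an adjusted p threshold of 0.01, and ran from 3 to 5 when 1 library was left out. Of all tested genes, 25.1% fell with cyclic loess, 20.8% at 0.01 and 22.5% to 24.3% with 1 library left out. The count of members that rose, 19, was 21 with upper-quartile factors, 16 with cyclic loess and 15 at a threshold of 0.01. It ran from 16 to 20 when 1 library was left out. Of all tested genes, 30.8% rose with upper-quartile factors, 25.7% with cyclic loess and 20.9% at 0.01. With 1 library left out, 23.3% to 24.5% of them rose. The median log2 fold change of the members, 0.22, was 0.28 with upper-quartile factors, 0.089 with cyclic loess, 0.24 with no filter, 0.12 with the stricter filter, 0.20 with limma-voom and 0.12 to 0.24 when 1 library was left out. Among the 24 tested members without exon overlap, a restriction chosen after seeing the data, 8 rose, 0 fell and the median was 0.28. Over all tested genes, not restricted this way, 26.7% rose and 25.9% fell. Among the members named, 5 that did not pass in any fit changed sign. IFT52 turned to 0.019 with upper-quartile factors, which moved the median of all genes to 0.059. DNAH17 turned to -0.012 with cyclic loess and DNAH5 to -0.13 with cyclic loess. With 1 library left out, DNAH5 ran from -0.054 (without WT replicate 1) to 0.097, and was -0.048 without KO replicate 2. IFT88 ran from -0.23 to 0.081 and RSPH9 from -0.41 to 0.15, both positive without KO replicate 1; the cause was not tested. Of the 23 members called, 17 were called in every refit in which they were tested, 15 higher and 2 lower (DNAAF5 and CFAP20), and none reversed.

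The replicate numbers in the titles did not pair the libraries: same-numbered deviations correlated at 0.00804, 0.0292 and -0.0441, and not every library correlated best with its own number. With the replicate block, 18 members rose and 4 fell, against 25.6% and 25% of all tested genes. The median was 0.23 and FOXJ1 was -4.98. CFAP45 was the member whose call ended with the block (0.59, adjusted p = 0.0698). Depth limits the 39 untested members, none above 20 counts in a library, for which a difference was not detectable unless large.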
